A study of Mus musculus with 8 samples.

Results

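BRG1-enriched regions over the starts of protein-coding genes were taken from the list of regions called in Tβ4-primed, infarcted mouse hearts. A region was a member if it lay on chromosomes 1 to 19, was at most 100 kb long and shared at least 1 bp with the window of 500 bp on each side of the 5′ end of a protein-coding gene. The members numbered 10345 of the 524614 regions in the list, and of 492131 that met the limits on chromosome and length. They touched the start windows of 9447 of 21418 protein-coding genes, a share of 44.1% (95% Wilson interval 43.4 to 44.8%). The base at the gene start itself lay inside a region in 5186 genes, or 24.2%.

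BRG1 had been immunoprecipitated from the hearts of mice that were, per the labels, adult C57BL/6 aged 10 to 12 weeks. The methods of the study state a somewhat higher age for infarcted mice, so the age is uncertain. Tβ4-primed mice had received thymosin β4 intraperitoneally at 12 mg/kg each day for 1 week, followed by infarction through lasting ligation of the LAD coronary artery on day 0, further injections on days 0 and 2, and harvest on day 4. PBS-primed mice had the same infarction and injections of vehicle only. The series holds 8 libraries, 2 of BRG1 ChIP and 2 of input for each of the PBS-primed and Tβ4-primed groups. The list used here sets Tβ4-primed ChIP against Tβ4-primed input, gives a start and an end for each region and no height, and does not separate the 2 replicates, so no value below has a replicate error and no comparison with PBS-primed hearts was made. The 95% Wilson intervals allow for counting error alone and take each gene as independent, although neighbouring genes can share a region. Whole hearts hold many cell types, and the share of each in a region cannot be told apart.

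BRG1, encoded by Smarca4, is an ATPase of the SWI/SNF chromatin-remodelling complexes, which slide or evict nucleosomes and change access to DNA. BRM, encoded by Smarca2, is the alternative ATPase. In many tissues the complexes are found at enhancers and at promoters, which in mammals divide broadly into CpG-rich promoters of widely expressed genes and CpG-poor promoters of genes with restricted expression.

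To show the range of DNA at issue, 4 stretches of 250 bases before a gene start are given, 5′ to 3′ on the strand of the gene, with each CpG in capitals (genome build mm9). They are the stretches with the most and the fewest CpG among the listed marker, study and SWI/SNF genes, at starts inside a region and at starts with no region in the window. None overlaps an annotated exon. Atp2a2 (the calcium pump of the sarcoplasmic reticulum, chr5:122952184-122952433, minus strand) held 42 CpG, and all 250 bases lay inside a region. Acrv1 (an acrosomal protein of sperm, chr9:36500555-36500804, plus strand) held 0 CpG, with 195 of the 250 bases inside a region. Arid1b (a subunit of SWI/SNF, chr17:4994082-4994331, plus strand) held 36 CpG and Cd79b (part of the B cell receptor, chr11:106176077-106176326, minus strand) held 0 CpG, and neither had a region in its start window.
Atp2a2: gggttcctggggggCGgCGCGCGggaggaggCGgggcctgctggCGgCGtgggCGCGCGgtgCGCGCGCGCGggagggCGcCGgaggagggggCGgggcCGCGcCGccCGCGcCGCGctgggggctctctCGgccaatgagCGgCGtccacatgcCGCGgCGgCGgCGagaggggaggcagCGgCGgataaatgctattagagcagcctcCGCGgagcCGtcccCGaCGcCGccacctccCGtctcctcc
Acrv1: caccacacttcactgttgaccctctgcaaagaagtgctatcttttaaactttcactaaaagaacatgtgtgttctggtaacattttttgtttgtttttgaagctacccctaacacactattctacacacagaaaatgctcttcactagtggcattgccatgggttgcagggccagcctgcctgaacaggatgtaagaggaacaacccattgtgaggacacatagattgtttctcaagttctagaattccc
Arid1b: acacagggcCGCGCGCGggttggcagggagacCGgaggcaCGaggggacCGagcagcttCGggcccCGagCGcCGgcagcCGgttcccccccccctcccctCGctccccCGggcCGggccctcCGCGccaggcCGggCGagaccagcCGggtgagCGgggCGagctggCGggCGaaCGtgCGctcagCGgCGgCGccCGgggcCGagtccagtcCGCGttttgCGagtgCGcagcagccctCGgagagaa
Cd79b: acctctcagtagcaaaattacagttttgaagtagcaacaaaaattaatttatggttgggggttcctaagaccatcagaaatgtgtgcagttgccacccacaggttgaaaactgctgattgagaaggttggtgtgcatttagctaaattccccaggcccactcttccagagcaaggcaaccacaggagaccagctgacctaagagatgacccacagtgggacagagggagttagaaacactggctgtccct
Both extremes of CpG content thus occurred on either side of the call. A start of 80% GC and a start of 42% GC were inside regions, and starts of 78.4% and 46.8% GC in the same 250 bases were not.

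Gene starts were touched by regions about as often as other places in the same chromosomes. Windows of the same size 10 kb upstream of the starts were touched in 42.6% of cases (41.9 to 43.3%), and windows 10 kb downstream in 43.1% (42.4 to 43.8%). At 50 kb upstream and 50 kb downstream the shares were 42.4% and 42.5%. The start exceeded the windows 10 kb upstream by 1.51 percentage points (interval 0.572 to 2.45), but by 0.264 (-0.642 to 1.17) with windows of 250 bp on each side and by 0.623 (-0.316 to 1.56) over the starts of any annotated transcript. The excess was 2.08 (1.14 to 3.03) with windows of 1000 bp on each side and 2.01 (1.15 to 2.87) with regions of at most 2 kb. The interval left out 0 in 14 of 17 alternatives, including -1.24 (-2.06 to -0.425) for the start base alone. Windows centred 1 kb upstream and 2 kb downstream, at 45.5% and 45.4%, were touched more often than the start. The label of these regions as regions over gene starts therefore describes their position, and not a marked concentration of regions of all lengths there. Regions of up to 600 bp touched 19.7% of the windows at CpG-rich starts and 15.0% of those 10 kb upstream.

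**Figure D1:**
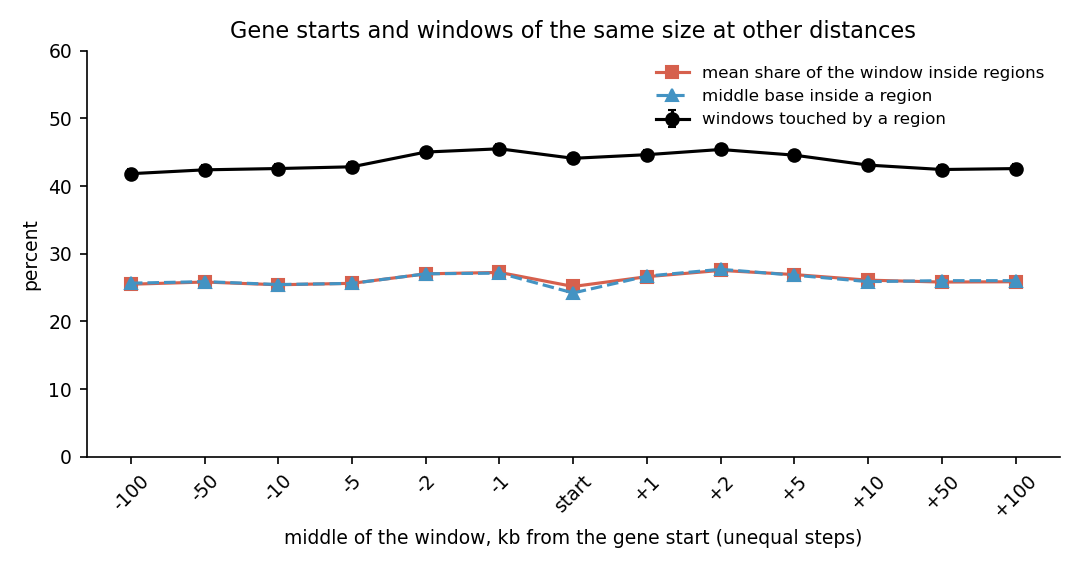
Share of 1001-base windows touched by a region (black, with 95% Wilson intervals that are mostly smaller than the points), mean share of the window inside regions (red) and share of middle bases inside a region (blue), against the distance of the window from the start of each protein-coding gene. The touched share stays between 41.8% and 45.5% at all 13 distances, and both measures of covered bases dip at the start.

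Measured by covered bases, the start was lower than its surroundings. On average, regions took up 25.2% of the window at the start, 27.2% at 1 kb upstream and 27.5% at 2 kb downstream, while they covered 25.7% of the 19 chromosomes. The start base was inside a region in 24.2% of genes against 25.5% of positions 10 kb upstream. Thus windows at starts were touched slightly more often and covered slightly less than windows 10 kb away. Other annotated positions varied somewhat more. The 3′ ends of the same genes were touched in 42.9% of cases, starts of 1232 lincRNA genes in 46.6% (43.8 to 49.4%) and starts of 4055 pseudogenes in 40.7% (39.2 to 42.2%).

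The members were longer than the list as a whole, with a median of 1050 bp against 600 bp. Long regions meet any window more often than short ones, and regions over the windows 10 kb upstream had a median of 1170 bp. Members of up to 600 bp made up 36.1%, compared with 33.1% of the regions over the windows upstream. Members over 2000 bp made up 32.6%, compared with 34.4%. So the members were somewhat shorter than regions met by windows of the same size elsewhere. Of the 11069 pairs of a region and a start window, 45.6% had the centre of the region within the window, and 50.6% had it upstream of the start. The whole window of 1001 bases lay inside a region at 2206 starts, 10.3% of all. Among the genes with a region, 7866 had 1, 1540 had 2 and 41 had 3, and the median number of window bases inside was 547.

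Single regions also touched the start windows of several neighbours. Most members, 9641, touched a single start window, 685 touched 2, 18 touched 3 and 1 touched 4. That last region (chr13:21808500-21813419, 4920 bp) touched the start windows of Hist1h2bl, Hist1h2ai, Hist1h3h and Hist1h2bm, replication-dependent histone genes of the large histone cluster. Among the regions over 3 windows, the longest was chr17:35194770-35203619, of 8850 bp, at Ddah2, AU023871 and Ly6g6c. Next came chr8:4325040-4329689 at Elavl1 and a pair of entries for Ccl25, chr7:112786380-112789109 at Arfip2, Fxc1 and Dnhd1, and chr17:34322250-34324709. The last of these lay at Tap1 and a pair of entries for Psmb9, genes of antigen processing that are transcribed in opposite directions. The 5 longest regions over a start base were of another kind. They measured 50820 bp at the predicted gene Gm3371 (chr14:44986440-45037259), 24000 bp at Dnahc9, an axonemal dynein (chr11:65963730-65987729), 21630 bp at the olfactory receptor gene Olfr1417 (chr19:11894850-11916479), 18570 bp at Rnf133 and Rnf148 (chr6:23599530-23618099) and 18390 bp at Gm10995 and Myh1, the fast skeletal myosin heavy chain (chr11:67001220-67019609).

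Around the threshold of the rule, single bases decided the call. Irgm2, Nt5m and Zfp36l1 were counted with 1 base of the window inside a region. Cdc34, Mpeg1 and Strbp, whose nearest region lay 1 bp beyond the window, were not. At most 10 bases were inside in 83 of the genes counted, and 59 of the genes not counted had a region within 10 bp of the window.

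Base composition was compared between genes with and without a region. Starts were classed as CpG-rich if a stretch of 500 bp in the window had a GC content of at least 55% and a ratio of observed to expected CpG of at least 0.75, as CpG-poor if no stretch reached a ratio of 0.48, and as intermediate otherwise. CpG-rich starts had a region in 4514 of 9833 cases, or 45.9% (44.9 to 46.9%), and CpG-poor starts in 3246 of 7657, or 42.4% (41.3 to 43.5%). The difference was 3.51 percentage points (2.03 to 4.99). It was 1.08 (-0.353 to 2.51) with windows of 250 bp on each side, 7.65 (6.30 to 9.0) with regions of at most 2 kb and 12.3 (10.8 to 13.8) over the starts of any annotated transcript. Counting any transcript start gives genes with many transcripts more windows, and the CpG class stayed that of the gene start. The difference between CpG-rich and CpG-poor starts also varied with surrounding coverage. Among starts in quintiles 2, 3 and 4 of surrounding coverage it was 1.33 (-1.95 to 4.61), 2.44 (-0.891 to 5.76) and 2.29 (-1.05 to 5.63). In quintiles 1 and 5 it was larger, at 4.86 (1.60 to 8.10) and 5.70 (2.30 to 9.07). The covered bases went the other way. On average 24.8% of the window was inside regions at CpG-rich starts and 25.9% at CpG-poor starts, and the start base was inside in 23.4% and 25.6%. In windows 10 kb upstream the same classes were touched in 42.9% and 42.1% of cases, and in windows 10 kb downstream in 44.1% and 41.8%.

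Region length differed between the classes, although their ranges overlapped. The quartiles were 360 and 2280 bp for the CpG-rich and 450 and 3180 bp for the CpG-poor class. Regions of up to 600 bp touched 19.7% of CpG-rich windows (18.9 to 20.5%) and 13.8% of CpG-poor windows (13.0 to 14.6%). Regions over 2000 bp touched 15.4% of CpG-rich windows (14.7 to 16.1%) and 18.4% of CpG-poor windows (17.5 to 19.2%). Short regions were thus more frequent and long regions less frequent at CpG-rich starts. The same comparison 10 kb upstream gave 15.0% and 14.2% for the short regions, and 16.0% and 16.7% for the long ones. The median length of the regions touching the windows was 930 bp for the CpG-rich, 1050 bp for the intermediate and 1320 bp for the CpG-poor class. The amount of copied sequence differed between the classes as well. The mean share of 32-base words of the window with more than 2 copies in the genome was 1.62% in the CpG-rich and 11.8% in the CpG-poor class. Without the 893 starts whose windows were mostly copied sequence, the difference between CpG-rich and CpG-poor starts was 3.35 percentage points (1.82 to 4.87).

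**Figure D2:**
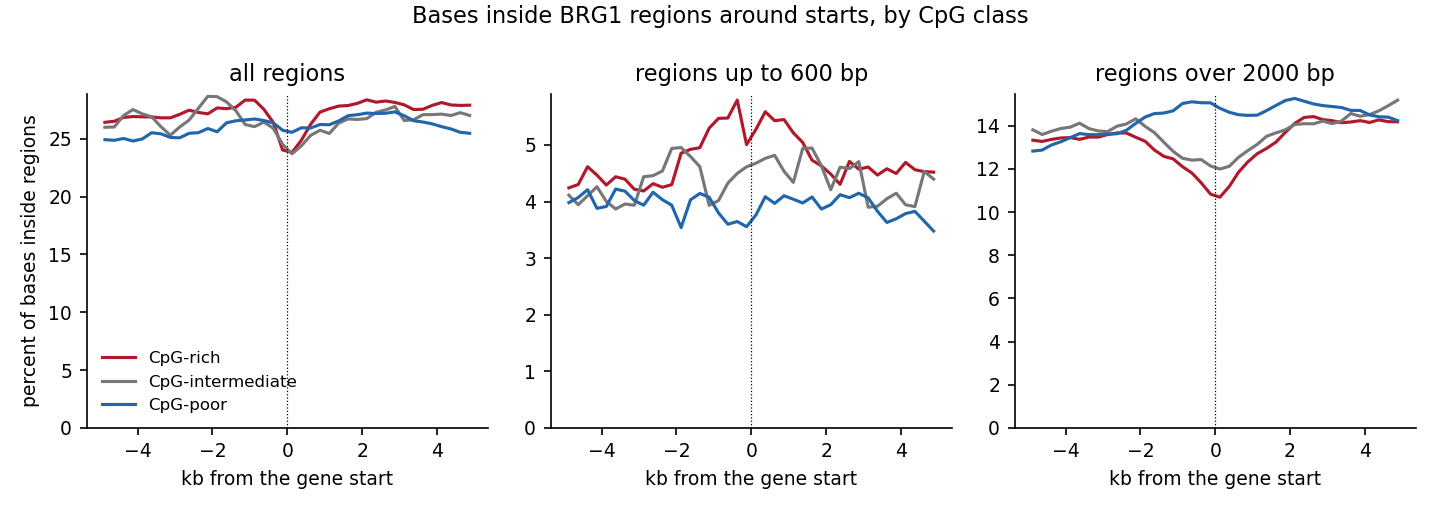
Percent of bases inside regions in bins of 250 bp from 5 kb upstream to 5 kb downstream of the start, for CpG-rich (red), intermediate (grey) and CpG-poor (blue) starts, with all regions, regions of up to 600 bp and regions over 2000 bp in separate panels with separate scales. At CpG-rich starts the long regions fall to 10.7% of bases in the bin after the start while the short regions lie above the other classes on both sides of it.

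The profile around the starts showed where these differences lay. At CpG-rich starts, 23.8% of the bases in the first 250 bp downstream were inside regions, against 28.4% between 1000 and 750 bp upstream. Long regions accounted for 10.7% of bases in that downstream bin and 13.6% in the bin from 3000 bp upstream. Short regions accounted for 5.79% of bases between 500 and 250 bp upstream and 4.24% in the bin from 5000 bp upstream. Between 1000 and 750 bp upstream, long regions held 12.1% and short regions 5.47% of bases, so both contrasts were smaller against that bin. At CpG-poor starts there was hardly any dip: 25.6% of the bases just downstream and 26.7% of those between 1000 and 750 bp upstream were inside regions. The lower coverage at gene starts was thus seen at CpG-rich starts and, with 23.7% just downstream, at intermediate starts.

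The difference in GC content varied with the rule. The median GC content of the window was 55.1% in genes with a region and 54.8% in genes without, a difference of 0.30 percentage points whose interval (-0.124 to 0.582) included 0. In 8 of 20 alternatives the interval left out 0, in either direction. The alternatives changed which genes were called or compared. GC content stayed that of the 500 bp on each side of the gene start, except in the alternative with 250 bp upstream and 50 bp downstream. The difference was -0.699 (-1.06 to -0.253) both by the start base and with at least 50% of the window inside, and 0.899 (0.452 to 1.18) with windows of 1000 bp on each side. It was 1.50 (1.07 to 1.86) with regions of at most 2 kb, 2.10 (1.74 to 2.38) over the starts of any annotated transcript and 0.667 (0.195 to 1.14) for the GC content of 250 bp upstream and 50 bp downstream. With regions of at most 10 kb, and with chromosome X added, it stayed at 0.30 (0.0171 to 0.660). The median ratio of observed to expected CpG was 0.582 (0.571 to 0.593) and 0.536 (0.523 to 0.548). Across deciles of that ratio the touched share ran from 41.4% in the decile around 0.335 to 47.2% in the decile around 0.846. Across deciles of GC content it ran from 42.0% to 45.9% in no steady order, and the covered share was highest, 28.5%, in the decile of lowest GC. Within the start windows, bases inside regions were 53.7% GC and bases outside 54.6% GC. The same held within each class, with 61.4% and 62% in CpG-rich, 52.0% and 52.9% in intermediate and 45% and 45.9% in CpG-poor windows. Genes with a region therefore had somewhat more CpG in the window, while the bases that the regions covered were slightly lower in GC than the rest of the same windows. The covered bases were also slightly lower in CpG, with 4.37 per 100 bases inside and 4.57 outside, and the order was the same within each class.

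**Figure D3:**
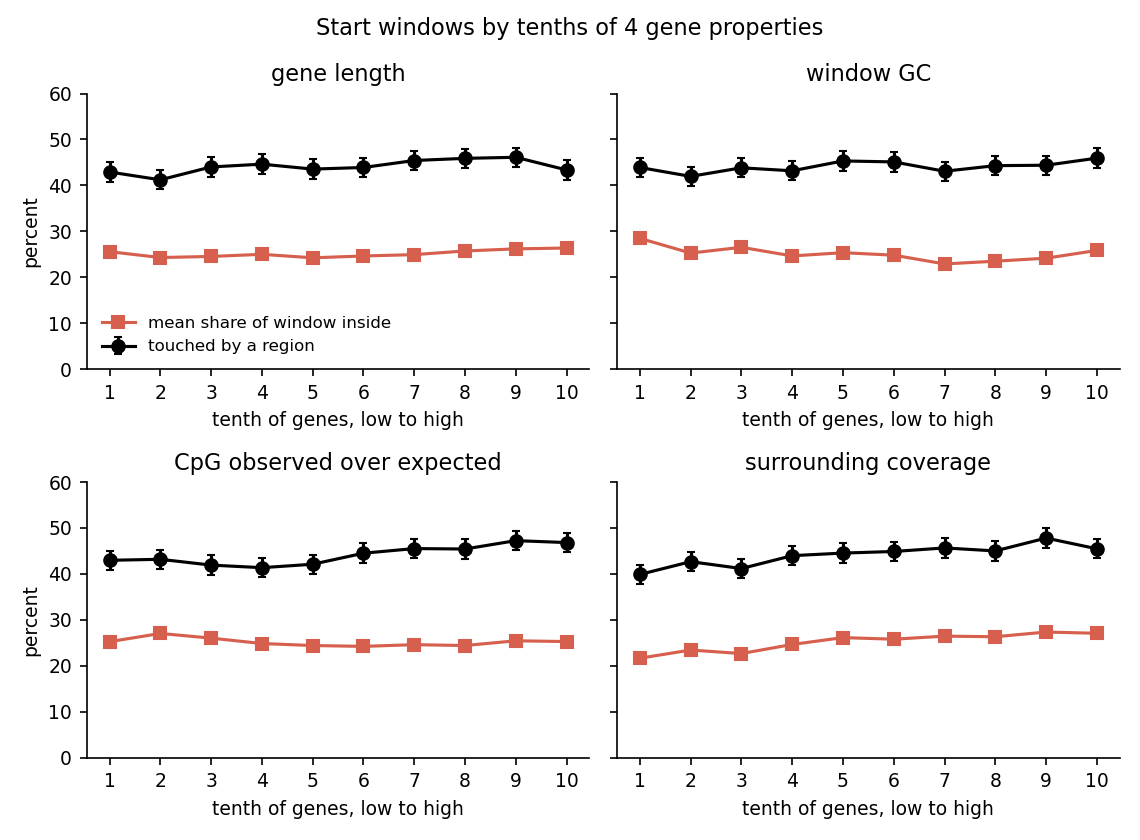
Share of start windows touched by a region (black, 95% Wilson intervals) and mean share of the window inside regions (red) across deciles of gene length, window GC content, ratio of observed to expected CpG, and coverage of the surrounding sequence from 5 to 50 kb on each side. The touched share rises from 39.9% to 47.8% between the lowest and the ninth decile of surrounding coverage, the widest range of the 4 properties.

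Gene length was nearly the same on both sides of the call. The median length was 16152 bp (15494 to 16826) in genes with a region and 15128 bp (14612 to 15631) in genes without, a ratio of 1.07 (1.01 to 1.13). With windows of 1000 bp on each side, by the start base, with at least 50% of the window inside, without predicted and RIKEN models, and within each quintile of window GC, the interval of the ratio included 1. The ratio was 0.970 among starts in the fourth quintile of window GC, and 1.89 when the 5′ end of any annotated transcript counted as a start, which gives genes with many transcripts more windows. Over deciles of length the touched share varied between 41.2% and 46.1%. The shortest decile, with a median of 927 bp, stood at 42.9% and the longest, with a median of 176392 bp, at 43.4%. Touched and untouched genes also differed little in their surroundings. A median of 25.6% of the sequence from 5 to 50 kb on each side was inside regions in genes with a region and 24.9% in genes without. The touched share was 39.9% in the decile of lowest surrounding coverage and 45.5% in the highest. Windows 10 kb upstream, which lie within the sequence that defines these deciles and so follow it by construction, went from 25.8% to 59.5% over the same deciles. Head-to-head starts, which lie within 1000 bp of a gene on the other strand and are 83.1% CpG-rich, were touched in 742 of 1546 cases, or 48.0% (45.5 to 50.5%), and the other starts in 43.8%. The covered measures went the other way, with the start base inside in 23.1% and 24.3% and a mean of 24.4% and 25.2% of the window inside. Windows 10 kb upstream of them were also touched more often, in 44.7% against 42.4%.

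Short sequence motifs were counted in the 250 bases before and 50 bases after each start, on both strands. The GC box GGGCGG occurred at 43.7% of all starts, at 44.7% of those with a region and 43.0% of those without. The ETS motif CCGGAAG occurred at 10.9% of all starts, 11.6% with a region and 10.4% without. By the start base the order turned for both motifs, with the GC box at 42.7% of starts inside a region and 44.1% of those outside, and the ETS motif at 9.58% (8.81 to 10.4%) and 11.4% (10.9 to 11.9%). The TATA motif, spelled TATAAA, occurred at 13.5% of all starts, 13.1% with a region and 13.9% without. The motif of GATA factors, spelled AGATAA, gave 10.2%, 9.84% and 10.4% in the same order, and the AP-1 motif TGANTCA gave 6.93%, 6.91% and 6.95%. By the start base these orders turned too, with 13.7% inside and 13.5% outside for TATA, 10.5% and 10.1% for GATA and 6.98% and 6.92% for AP-1. The CCAAT box (CCAAT) occurred at 37.6% of all starts, with 38.6% and 36.7% on either side of the call. By the start base its order stayed, with 38.1% inside and 37.4% outside. By CpG class, the GC box was at 72.0% of CpG-rich and 9.37% of CpG-poor starts with a region, and the TATA box at 5.41% and 24.2%. Without a region the same classes had 73.0% and 9.05% for the GC box, and 6.00% and 24.2% for the TATA box. The GC box and the TATA box thus differed with the CpG class far more than with the presence of a region. The CCAAT box did not: it was at 37.4% of CpG-rich and 39.5% of CpG-poor starts with a region, and at 36.6% and 36.1% of those without. The GC box contains a CpG, which the classes are built on, so motif and class are not independent measures.

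The study found C/EBPβ together with BRG1 at elements of the Wt1 locus. Matches to the C/EBP motif (TTGCNNAA, both strands) were therefore located in the 250 bases before the starts of listed genes. Matches occurred at 30 of the 215 listed genes searched, 33 in all, and at 9.15% of all protein-coding starts. Of the 33 matches, 5 lay inside a region, while regions held 24.7% of the 250 bases before all protein-coding starts. The 5 are shown with 10 bases on each side, 5′ to 3′ on the strand of the gene, the motif in capitals.
Erg: ttctggctgtTTGCTGAAattcttggct
Actc1: aaatctgattTTGAGCAAaactcttaca
Csrp3: acgggctattTTTGGCAAttgtgttact
Brd7: ttcaataataTTGCTAAAgacaagaaac
Csrp3: ccttggtgccTTAGGCAAatggcaatta
They lay 41 bp before the start of Erg (an endothelial ETS factor, chr16:95808231-95808258), 74 bp before Actc1 (cardiac actin, chr2:113879348-113879375), 119 and 233 bp before Csrp3 (a muscle LIM protein, chr7:56103509-56103536 and chr7:56103623-56103650) and 216 bp before Brd7 (a subunit of the PBAF form of SWI/SNF, chr8:90886299-90886326), all genes of the minus strand. A match is a run of letters and no evidence of binding. In 300 bases around the start the motif was found at 10.7% of all starts with a region and 10.0% of those without. By the start base the shares were 10.9% inside and 10.2% outside. At CpG-rich starts the shares were 7.51% (6.78 to 8.32%) with a region and 5.90% (5.30 to 6.57%) without, at intermediate starts 10.7% and 10.9%, and at CpG-poor starts 15.1% and 14.6%.

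Subunits of the BRG1 and BRM complexes had a region at 17 of 27 starts, or 63.0% (44.2 to 78.5%), with a median of 224 window bases inside regions, compared with 44.1% and a median of 0 over all protein-coding genes. Their windows were touched in 44.4% of cases both 10 kb upstream and 10 kb downstream, and 85.2% of the starts were CpG-rich. Of the ATPase genes, Smarca4 had no region at its start and Smarca2 had 300 of 1001 window bases inside. Among the core subunits, Smarcb1 had 443 bases, Smarcc1 49, Smarcc2 420 and Smarcd3 540, whereas Smarcd1, Smarcd2 and Smarce1 had none. The actin-related Actl6a had 429 and its neuronal counterpart Actl6b 25. The split by complex form was as follows. All 4 subunits particular to PBAF were touched, Arid2 with 461 bases, Pbrm1 with 306, Phf10 with 270 and Brd7 with the whole window. Arid1a and Arid1b, which define the canonical BAF form, had none. Of the DPF zinc finger subunits, Dpf1 was wholly inside, Dpf3 had 823 bases and Dpf2 none. Brd9, of the non-canonical form, had 224 bases, Ss18 had 300, Bcl7b had 87 and Bcl11a had 997, while Bcl7a, Bcl7c and Bcl11b had none. Most of these overlaps were partial: the start base was inside a region in 25.9% of the subunit genes, close to the 24.2% of all genes.

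**Figure D4:**
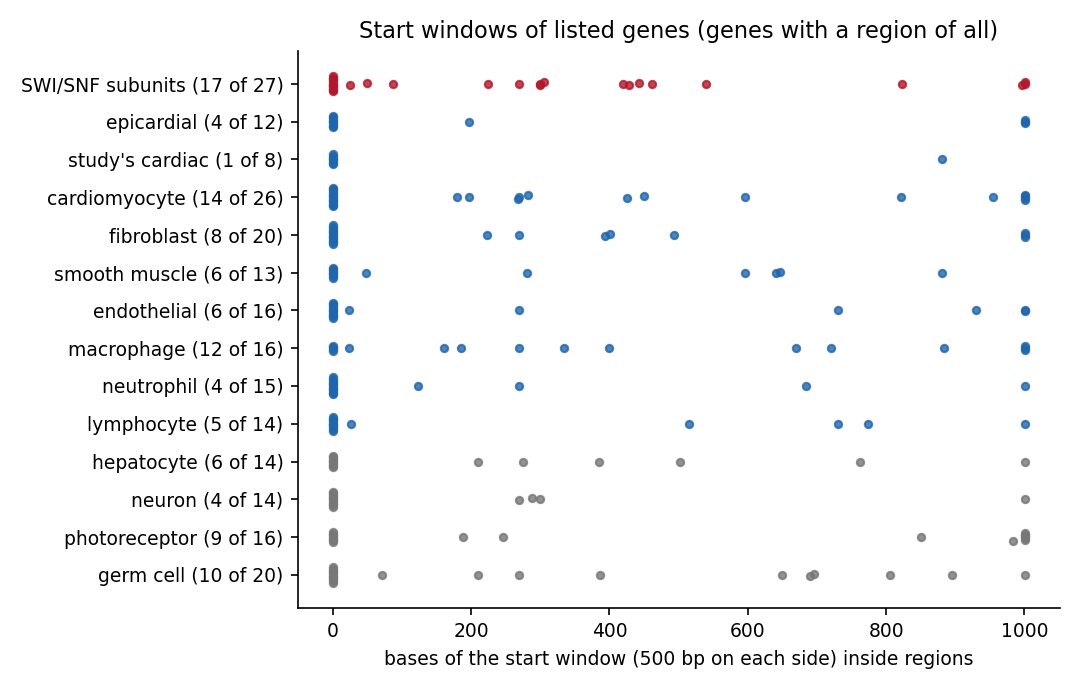
Bases of the 1001-base start window inside regions for each listed gene, 1 point per gene, with the number of genes with a region and of all genes in brackets. SWI/SNF subunits are red, lists of the study and of cell types found in a heart are blue, and types that a heart should lack are grey. Points at 0 are genes without a region, and those at the right edge are windows wholly inside a region.

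The genes that the study followed in the epicardium and myocardium were presented as BRG1-enriched in these same hearts, so their counts are no independent evidence. Some of them, such as Upk3b and Gpm6a, were known from earlier work on the adult epicardium. Of 12 epicardial genes, 4 had a region at the start (33.3%, 13.8 to 60.9%), compared with 44.1% of all genes. Windows of Gata5, Aldh1a2 (retinoic acid synthesis) and Tbx18 (a T-box factor of the epicardium) were wholly inside, and 197 bases were inside at Upk3b. Wt1, the Wilms' tumour transcription factor on which the study centred, had none in the window, nor had Tcf21, Bnc1, Vcam1, Dmkn, Gpm6a, Krt8 and Upk1b. Among 8 cardiac genes (12.5% with a region, 2.24 to 47.1%), Acta2 (smooth muscle actin) alone had regions, 2 of them over 881 bases. The intervals of both lists include the share of all genes. Myh6, Myh7, Myh7b, Tnnt2, Actn2, Col1a2 and Lrp1 had none in the window. The study used another measure, the gene closest to each region. It examined Wt1 at an element in an intron and Myh7 in a longer stretch upstream of the start. Regions outside the start window were not counted here, so a gene without a region in the window does not contradict the study.

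Markers of heart cell types and of types that a heart should lack had nearly the same share of touched starts, close to the 44.1% of all genes. Of 130 markers of cell types found in a heart, the 12 epicardial genes of the study included, 58 had a region (44.6%, 36.3 to 53.2%), and of 64 markers of hepatocytes, neurons, photoreceptors and germ cells, 29 had a region (45.3%, 33.7 to 57.4%). Single lists varied widely around these values. Macrophage markers had a region at 12 of 16 starts (75%, 50.5 to 89.8%), among them Ctss, Itgam and Lgals3 with the whole window inside and Cd68 with 186 bases. Neutrophil markers had a region at 4 of 15 starts (26.7%), namely Elane, Mpo, Mmp9 and Stfa1. Cardiomyocyte markers had 14 of 26, with Tnnc1 annotated under 2 entries. Windows of Actc1, Csrp3, Nppb and the ryanodine receptor gene Ryr2 were wholly inside, whereas Ttn, Nppa, Pln and Mybpc3 had no region. Photoreceptor markers had 9 of 16, with Rcvrn, Prph2, Nrl, Cnga1 and Rp1 wholly inside. Germ cell markers had 10 of 20 and fibroblast markers 8 of 20, Col3a1, Col5a1 and Fn1 among them with the whole window. The other lists were smooth muscle with 6 of 13, endothelium with 6 of 16, lymphocytes with 5 of 14, hepatocytes with 6 of 14 and neurons with 4 of 14. The mean share of the window inside regions was 45.4% for photoreceptor, 41.5% for macrophage and 32.5% for cardiomyocyte markers, against 25.2% over all genes. It was lowest for neuron and neutrophil markers, with 13.3% and 13.8%, and lay between 21.7% and 28.4% for the other 6 lists. Over the 11 lists other than the study's own and SWI/SNF, the shares had a standard deviation of 13.8 percentage points at the starts, 12.4 in windows 10 kb upstream of the same genes and 10.3 in windows 10 kb downstream.

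Gene families were described in the same way, by symbol. Of the 41 families with at least 20 genes, the interval of a single family, the predicted Gm models, left out the share of all genes, with 740 of 1855 starts or 39.9% (37.7 to 42.1%). Their windows were also rich in copied sequence, with a mean of 34.9% of 32-base words in more than 2 copies. The 5 highest shares were those of killer cell lectin-like receptors with 16 of 28 (57.1%), E2 ubiquitin-conjugating enzymes with 19 of 34 (55.9%), FGF ligands and receptors with 15 of 27 (55.6%), Rab GTPases of membrane traffic with 35 of 63 (55.6%) and aminoacyl-tRNA synthetases with 18 of 34 (52.9%). The 5 lowest were those of clustered protocadherins with 6 of 24 (25%), MHC genes with 11 of 36 (30.6%), kinesin motors with 12 of 37 (32.4%), major urinary proteins with 7 of 21 (33.3%) and kallikreins with 10 of 28 (35.7%), a share that collagens, with 15 of 42, matched. Shares of the families had a standard deviation of 7.45 percentage points at the starts, 9.12 in windows 10 kb upstream and 9.67 in windows 10 kb downstream. Families thus differed no more at their starts than in sequence nearby.

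**Figure D5:**
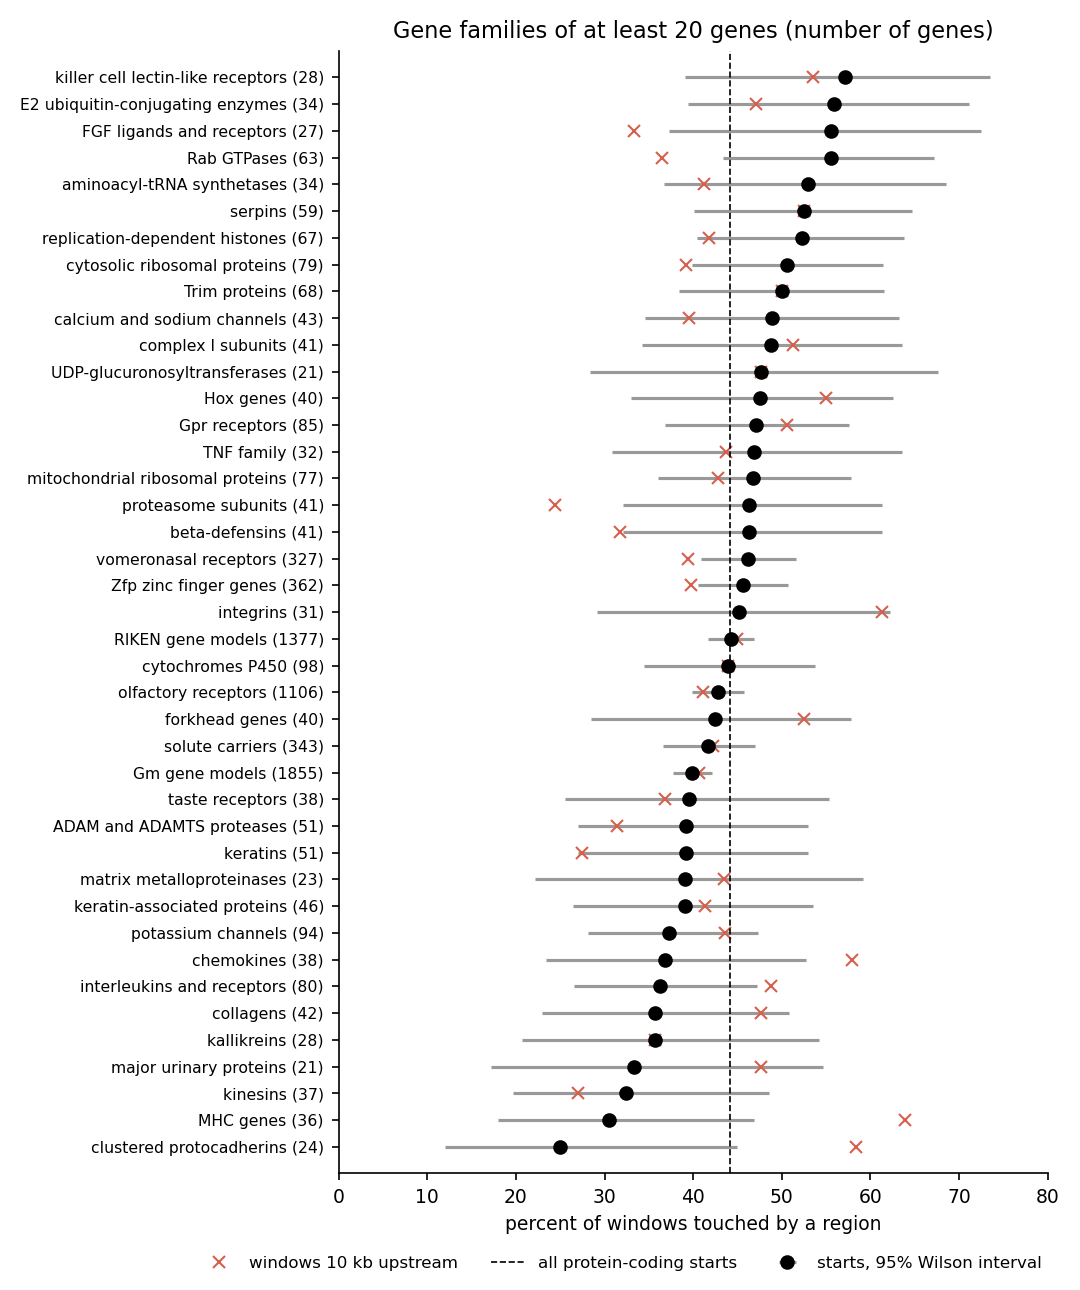
Share of start windows touched by a region in the 41 families with at least 20 genes (black, 95% Wilson intervals), share of windows 10 kb upstream of the same genes (red crosses) and share over all protein-coding starts (dashed line, 44.1%). Only the interval of the Gm gene models lies clear of the line.

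Grouped by role, families of housekeeping machinery (ribosomes, proteasome, respiratory complex I, tRNA charging, ubiquitin transfer, Rab GTPases and histones) had a region at 222 of 436 starts, or 50.9% (46.2 to 55.6%), compared with 40.4% in windows 10 kb upstream and 48.4% in windows 10 kb downstream. The share over all genes was 44.1%. Of the starts in these families 83.5% were CpG-rich, a class touched at 45.9%, and their start bases were inside in 22.0% against 24.2% over all genes. Cytosolic ribosomal proteins had 40 of 79, mitochondrial ribosomal proteins 36 of 77, complex I subunits 20 of 41, proteasome subunits 19 of 41 and histones 35 of 67. Immune families (chemokines, interleukins, the TNF family, MHC and killer cell lectin-like receptors) had 85 of 214, or 39.7% (33.4 to 46.4%), compared with 52.8% in windows 10 kb upstream and 41.6% in windows 10 kb downstream. Matrix and adhesion families had 58 of 147, or 39.5% (31.9 to 47.5%), and channels and transporters 199 of 480, or 41.5% (37.1 to 45.9%). Transcription factor families (Zfp, Hox, forkhead, Sox and T-box genes) had 212 of 472, or 44.9% (40.5 to 49.4%). Growth factor families (Wnt and FGF) had 25 of 46, or 54.3% (40.2 to 67.8%). Of the groups named in this paragraph, only the interval of the housekeeping families left out the share over all genes. CpG-rich starts were common in some families with high shares, such as ribosomal proteins with 89.9%, but not in others: killer cell lectin-like receptors had 7.14% CpG-rich starts and serpins, touched at 31 of 59 starts (52.5%), had 3.39%. Among families with mostly CpG-rich starts, kinesins with 81.1% and forkhead genes with 72.5% CpG-rich starts were touched in 32.4% and 42.5% of cases. The intervals of these 4 families include the share of all genes.

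Chemosensory receptors, which a heart would not be thought to use, gave a limited check on background. Olfactory receptor genes had a region at 473 of 1106 starts, or 42.8% (39.9 to 45.7%), and the difference from all genes was -1.34 percentage points (interval -4.30 to 1.67). That difference was -8.05 (-10.5 to -5.45) with regions of at most 2 kb and -12.6 (-15.6 to -9.60) over the starts of any annotated transcript, which gives genes with many transcripts more windows. Vomeronasal receptor genes had 151 of 327, or 46.2%, and taste receptor genes 15 of 38, or 39.5%. The start base was inside a region in 29.2% of olfactory receptor genes, 4.99 percentage points above all genes (2.32 to 7.80). The same measure was 28.1% in vomeronasal and 21.1% in taste receptor genes. By the main rule the interval of each of the 3 families included the share of touched starts over all genes, and the start bases of olfactory receptor genes were covered more often than average. Olfactory receptor windows had a median GC content of 39.1% and no CpG-rich start. The annotated genes were short, with median lengths of 960.5 bp (olfactory), 1088 bp (vomeronasal) and 960 bp (taste), against 15535 bp over all genes. Whether their annotated 5′ ends mark promoters was not tested, so these windows may not be comparable with other starts. The mean share of copied sequence, measured as for the CpG classes, was 30.3% in vomeronasal and 5.14% in olfactory receptor windows, against 6.04% over all genes.

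Hox genes stood in densely covered surroundings. For the 40 of them, which pattern the body axis, a median of 39.8% of the surrounding sequence was inside regions, compared with 25.2% over all genes, and 19 starts, or 47.5% (32.9 to 62.5%), had a region, compared with 44.1% of all genes. The start base was inside a region in 37.5% of them against 24.2%, and on average 30% of the window was inside against 25.2%. Windows 10 kb upstream and downstream of them were touched in 55% and 60% of cases, compared with 42.6% and 43.1% over all genes. By cluster, the counts were 5 of 12 for Hoxa, 4 of 10 for Hoxb, 5 of 9 for Hoxc and 5 of 9 for Hoxd. Genes of the same cluster share much of their surrounding sequence, so the median and the interval for the 40 do not rest on independent values. The same applies to the clustered protocadherins. Clustered protocadherins and MHC genes, whose surroundings were covered to a median of 23.5% and 22.9%, had shares of 25% and 30.6% at the starts, 58.3% and 63.9% in windows 10 kb upstream, and 45.8% and 52.8% in windows 10 kb downstream. Within the histones, H2B genes had a region at 12 of 18 starts (43.7 to 83.7%), H2A at 10 of 19 (31.7 to 72.7%), H4 at 7 of 13 (29.1 to 76.8%), H3 at 5 of 11 (21.3 to 72.0%) and H1 at 1 of 6 (3.01 to 56.4%). All of these intervals include the 44.1% of all genes. Histone windows were rich in copied sequence, with a mean of 30.1% of 32-base words in more than 2 copies, and 40.4% in H2A genes.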

How the data were processed

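The deposited list holds start and end positions of regions in bp. Per the submitters' processing notes and the study's methods, the authors mapped reads to mm9 with Bowtie 1.0.0 and called regions with MACS2 2.0.10. How the 2 replicates were combined is not given in the sources used here, and the depth behind each region is unknown. Gene starts, types and lengths came from the GENCODE annotation of mm9, and base composition and sequences from the mm9 genome. Overlaps, shares and medians were computed with pandas 2.3.3 and numpy 2.4.6 in Python 3.11.15, and sequences read with pysam 0.24.0, with code tested on simulated regions against bedtools 2.31.1. Regions over 100 kb, of which 4 lay on chromosomes 1 to 19, were left out. No test was made, since a single list was at hand. Members and gene lists were chosen with earlier results of these data known. The rule for named genes took every gene of the study's and SWI/SNF lists, the 5 longest regions over a start base and the 5 over the most windows, the 5 highest and 5 lowest families and those grouped by role, 3 genes on each side of the threshold, the sequences with the most and fewest CpG, and C/EBP matches inside regions. The 8 listed genes on chromosome 18 were left out of both searches of sequence. Bnc1 and Cd163 were passed over there because an annotated exon overlapped their stretch. Other markers were named after their values were seen. Adgre1 (annotated as Emr1, also listed), Foxp3, F9, Syn1 and Map2 had no match by symbol on chromosomes 1 to 19.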

Additional observations from a re-analysis of the deposited data

How the results depend on the processing

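One pooled list without heights was used. No stricter call was tried, and intervals cover counting error only. No paired analysis was possible because the list does not separate replicates and no test was made. Of 102 combinations of a result and an alternative, 69 stayed within the interval of the reported value, 28 moved outside it and 5 reversed. Reversed means a change of sign, or for the ratio of side of 1, where the interval of the reported value leaves out no difference. Where that interval includes no difference, 6 of the values that moved and 1 that stayed within the interval also changed sign. The alternative's own interval included no difference in 9 of 19 alternatives for the ratio of median lengths, 4 of 19 for CpG-rich minus CpG-poor and 3 of 17 for starts minus windows 10 kb upstream. It left out no difference, where that of the reported value did not, in 8 of 20 for median GC and 4 of 13 for olfactory receptor genes. The cause was not tested for those that moved or reversed. Joining regions within 500 bp of each other, 6 of the 69, cannot change whether a window of this size is touched and says nothing about stability. Leaving out starts rich in repeats as marked in the genome was not run, and leaving out 893 genes with mostly multi-copy windows, chosen after seeing the data, moved no result.

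The share of starts with a region (44.1%) was 35.7% with windows of 250 bp on each side, 55.7% with 1000 bp, 24.2% for the start base alone, 41.1% with at least 100 bp inside, 23.5% with at least 50% inside, 43.4% with regions of at most 10 kb, 29.7% with at most 2 kb and 56.6% for any transcript start. In the same units, CpG-rich minus CpG-poor (3.51) was 1.08 (-0.353 to 2.51) with 250 bp, 5.51 with 1000 bp, -2.16 for the start base, -1.58 with 50% inside, 7.65 with regions of at most 2 kb and 12.3 for any transcript start, and 1.33 and 5.70 in the second and the highest quintile of surrounding coverage. Olfactory receptor genes minus all genes (-1.34) was 4.99 for the start base, 4.00 with 50% inside, -8.05 with at most 2 kb and -12.6 for any transcript start. Starts minus windows 10 kb upstream (1.51) was 0.264 with 250 bp, 0.623 (-0.316 to 1.56) for any transcript start, -1.24 for the start base and -0.613 with 50% inside. The same difference was 2.08 with 1000 bp and 2.01 with regions of at most 2 kb. The difference in median GC (0.30) was -0.200 with 250 bp, 0.899 with 1000 bp, -0.699 both for the start base and with 50% inside, 1.50 with at most 2 kb, 2.10 for any transcript start, 0.667 over 250 bp upstream and 50 bp downstream, and -0.250 in the shortest quintile of gene length. Apart from the 0.667, GC content and CpG class stayed those of the 500 bp on each side of the gene start. Counting any transcript start gives genes with many transcripts more windows. The ratio of median lengths (1.07) was 1.89 for any transcript start and reversed to 0.970 in the fourth quintile of GC.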

Other observations

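On chromosome X, which the membership rule leaves out, 351 of 932 protein-coding starts had a region, or 37.7% (34.6 to 40.8%), while 23.6% of the chromosome and 24.2% of its start windows lay inside regions. Among the autosomes the share of starts with a region ranged from 41.6% on chromosome 13 to 46.4% on chromosome 1.

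Starts of noncoding genes gave 44.1% for 1468 miRNA genes, 42.7% for 1331 snRNA genes and 41.2% for 1458 snoRNA genes. Starts with more than 50% of their window in multi-copy sequence, 893 in all, had a region in 38.6% of cases (35.5 to 41.9%), and 17.3% of these windows lay inside regions.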
